A study of Mus musculus with 5 samples.

Results

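The 7 genes described here are 6 CXC chemokines, Cxcl12, Cxcl14, Cxcl16, Cxcl1, Cxcl9 and Cxcl10, and the receptor Cxcr4. They were chosen by gene symbol from the 35976 genes of a deposited count table, and 7 of 7 symbols were found. The libraries came from ACSA-2-selected cells, an astrocyte surface antigen captured on magnetic beads, of the amygdala of CCR2-DTR mice. All animals carried the genotype Ccr2::CreERT2/+;DTR/+, in which tamoxifen-activated Cre, expressed from the Ccr2 locus, turns on a diphtheria toxin receptor. All received tamoxifen and 18 days of tube restraint, then fear conditioning and extinction. The groups differed in what was injected during restraint, saline in 2 libraries and DTx (diphtheria toxin) in 3. As labelled, the comparison is meant to address what depletion of CCR2-expressing monocytes does to these cells under stress. Ccr2 counts were few and not lower in DTx, and in cells selected as astrocytes they cannot show whether monocytes were depleted. The groups also differed in sex-linked genes, as given below. The design names 1 more saline sample, which was not analysed here, and the comparison rests on the 2 saline libraries used. No unstressed animals were part of the comparison, and the labels give no age or sex. The DTx columns carry numbers that occur in no sample label, and they are called libraries 5A, 6A and 7A.

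CXC chemokines are small signalling proteins named for a pair of conserved cysteines with another residue between them, and they guide leukocytes and precursor cells through G protein-coupled receptors. Some are made constitutively. CXCL12 acts through CXCR4 and is taken up by the scavenger receptor ACKR3, CXCL14 is present in many resting tissues, and CXCL16 is a membrane-anchored ligand of CXCR6 that ADAM10 and ADAM17 release. Others are switched on by inflammation: CXCL9, CXCL10 and CXCL11 are interferon-induced ligands of CXCR3 on T and NK cells, and CXCL1 and its relatives are NF-kB targets that draw neutrophils through CXCR2. In the brain, astrocytes, microglia, vascular cells and border macrophages are all known sources of CXC chemokines.

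Total counts ranged from 15961220 to 23720299 per library. Levels are given as CPM, the count relative to library size after trimmed mean of M-values (TMM) scaling, and 3 counts correspond to 0.134 to 0.187 CPM. Summed over 11 astrocyte markers, libraries were at 24673 to 28956 CPM, and over 8 oligodendrocyte markers at 42053 to 90613 CPM, so the selected cells were not astrocytes alone. Ccr2, the gene of the targeted locus, had 0 counts in the libraries labelled saline and 54, 4 and 4 counts in DTx-labelled 5A, 6A and 7A. This gene was thus not lower in the libraries labelled as depleted. Most of its counts were in 5A, and those of 6A and 7A were near the limit of 3 counts. In cells selected for an astrocyte antigen, these counts cannot show whether monocytes were depleted in the animals. Xist, the X-inactivating RNA, was at 129 to 173 CPM in the saline-labelled pair and at most 0.159 CPM in DTx, and the Y-linked helicase gene Ddx3y was at most 0.185 CPM in the saline-labelled pair and at 116 to 134.7 CPM in DTx. The sex of the animals and the treatment therefore cannot be told apart in any value below, and every direction is that of the libraries as labelled.

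Levels of different genes were compared after division by exon length. Cxcl14 stood far above the other genes, at 277 CPM per kilobase of exon as a mean over the 5 libraries (259 to 293). Cxcl10 followed at 1.49 (0 to 5.16), then Cxcl12 at 0.854 (0.48 to 1.21) and Cxcl16 at 0.767 (0.312 to 1.57). Below these came Cxcl1 at 0.322 (0 to 1.21), Cxcl9 at 0.158 (0 to 0.598) and Cxcr4 at 0.115 CPM per kilobase (0.0344 to 0.281). Cxcl14 alone was separated from its neighbour in this order, since the ranges of all other neighbours overlapped. In the saline libraries the order after Cxcl14 was Cxcl12, Cxcl16, Cxcr4 and Cxcl1, at 0.701, 0.408, 0.165 and 0.0482 CPM per kilobase, with Cxcl9 and Cxcl10 at 0. The exon length of Cxcl12 joins all annotated isoforms (8176 bases), which lowers its value if the shorter ones were the ones present.

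**Figure D1:**
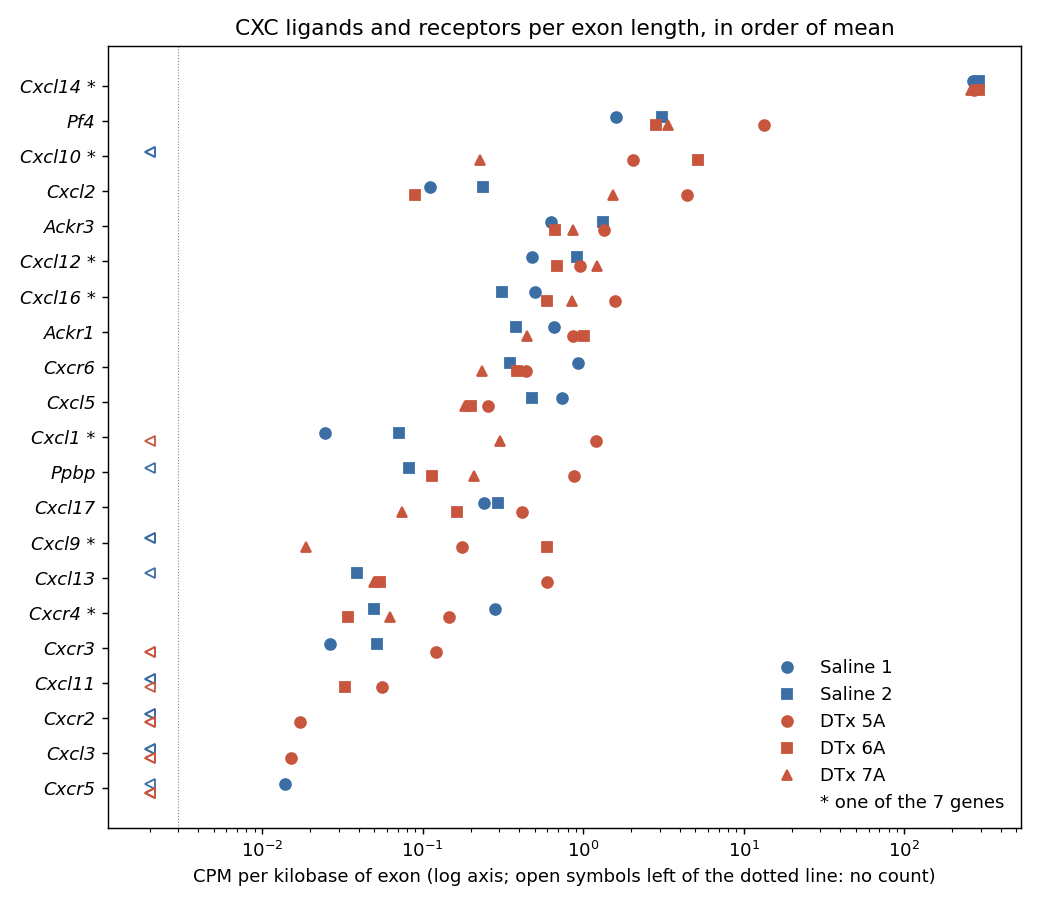
Level of each CXC ligand and receptor that had a count, in CPM per kilobase of exon on a log axis, with blue symbols for the 2 saline and red symbols for the 3 DTx libraries and open triangles for libraries with no count. Cxcl14 lies between 259 and 293 in all 5 libraries, and the other genes lie at 13.3 or below.

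Among the 7 genes, 0 passed the test between DTx and saline over all genes (edgeR quasi-likelihood, adjusted p threshold 0.05). Of the 15532 genes tested, 0.0258% were called higher and 0.00644% lower in DTx. The 4 called higher were the Y-linked genes Ddx3y, Eif2s3y, Uty and Kdm5d, and the 1 called lower was Xist. These genes mark sex, and no other gene passed. At an unadjusted p under 0.05 there were 3 of the 6 tested, Cxcl10, Cxcl9 and Cxcl16, where 6.28% of all genes had such a p. Cxcr4 fell below the low-count filter. DESeq2 and the edgeR likelihood ratio test each called 1 of the 7, Cxcl10, where they called 0.729% and 0.599% of all genes. DESeq2 gave Cxcl9 no adjusted p, and limma-voom called 0 of the 7. Values of the groups did not overlap for 3 genes with DTx higher, Cxcl16, Cxcl9 and Cxcl10, and for 0 with DTx lower, against 12.1% and 8.99% of all tested genes. Cxcl1, Cxcl9 and Cxcl10 passed the low-count filter through their DTx counts, which alone makes a difference likely, so nothing is read from these counts. The separations of Cxcl10 and Cxcl16 depend on which control columns of the table are used, since 1 control column that matches no sample label was left out, and they are not to be relied on as a difference between the groups. The 5 libraries split into 3 and 2 allow no exact permutation p below 0.1.

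**Figure D2:**
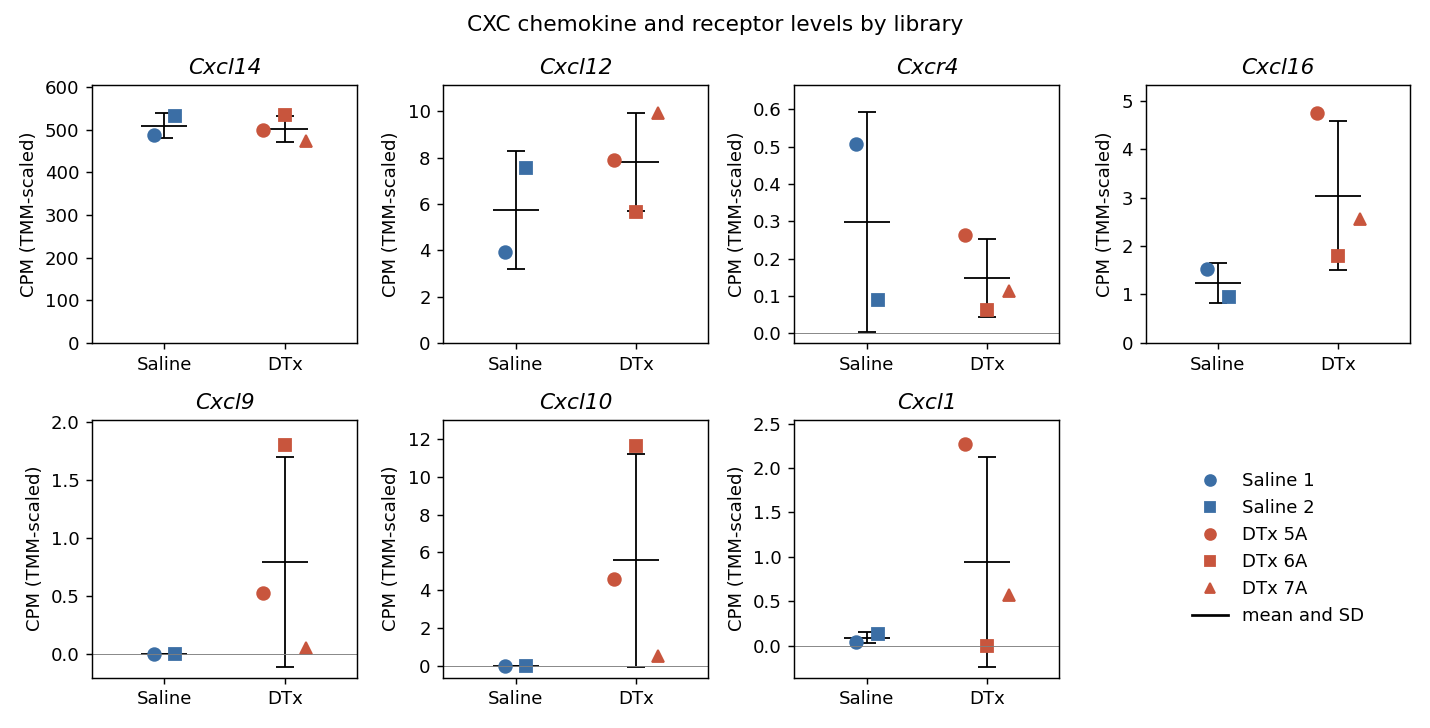
Level of each of the 7 genes in CPM, with a symbol for each library and the mean and SD of each group (saline n = 2, DTx n = 3). Cxcl14 sits at 474 to 535 CPM in both groups, Cxcl9 and Cxcl10 have no count in the 2 saline libraries used, and the DTx libraries are spread widely for Cxcl1, Cxcl9, Cxcl10 and Cxcl16.

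Cxcl14, the constitutive chemokine (GRCm38 chromosome 13, 56288643 to 56296551, minus strand), was the steadiest of the 7. It was at 488 and 531 CPM in saline replicates 1 and 2, and at 499, 535 and 474 CPM in DTx-labelled 5A, 6A and 7A. The values interleaved, with the lowest and the highest library both in the DTx group. Means were 509.9 ± 30.3 CPM (SD, n = 2) and 502 ± 30.7 CPM (SD, n = 3). The fold change was 0.985 with a 95% interval of 0.759 to 1.28 (edgeR adjusted p = 0.978), so a change beyond this range was not seen while smaller ones were not detectable. Each library held at least 8318 Cxcl14 counts, so its counting error is small. The gene of most similar pattern over the 5 libraries, by root mean square difference of centred log2 CPM, was Clpb (0.023), and Cxcl14 itself spanned 0.175 log2 units.

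Cxcl12, the CXCR4 ligand (chromosome 6, 117168535 to 117181367, plus strand), differed between group means by less than the SD of either group. It was at 3.92 and 7.53 CPM in saline replicates 1 and 2, and at 7.88, 5.66 and 9.91 CPM in DTx-labelled 5A, 6A and 7A. Saline replicate 1 was the lowest library and 7A the highest, and saline replicate 2 lay above library 6A. The log2 fold change was 0.45 ± 0.374 (SE) with a 95% interval of -0.45 to 1.34 (edgeR adjusted p = 0.83). Leaving out saline replicate 1 made it 0.0517, and leaving out saline replicate 2 made it 0.994. Cxcl14 gave 47.8 to 124.5 counts for each Cxcl12 count.

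Vascular cells are a known source of CXCL12, and their markers were present in these libraries. Summed over 10 endothelial markers the level was 25.2 and 31.2 CPM in saline replicates 1 and 2 and 32.1, 21.3 and 38.1 CPM in 5A, 6A and 7A. Cxcl12 and this sum were both highest in library 7A, while Cxcl12 was lowest in saline replicate 1 and the sum in 6A. Summed over 9 mural cell markers the level was 192 and 452 CPM in the saline-labelled pair and 279 to 336 CPM in DTx, with Tagln at 0 counts in saline. The part of these cells in the Cxcl12 level was not tested, and in bulk samples fewer cells of a type and less RNA per cell cannot be told apart. The genes of most similar pattern to Cxcl12 were Pde3a and Cgnl1 (0.11 and 0.118 log2 units, with Cxcl12 spanning 1.31).

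Cxcr4, the signalling receptor of CXCL12 (chromosome 1, 128588199 to 128592293, minus strand), was close to the detection limit. Saline replicate 1 had 11 counts and replicate 2 had 2, against 5, 1 and 2 in DTx-labelled 5A, 6A and 7A. Saline replicate 1 held most of them, and the groups overlapped. The ratio of summed counts, DTx over saline, was 0.515 (95% exact interval 0.185 to 1.34, counting error only), and leaving out saline replicate 1 or 2 made it 1.70 or 0.3, and without library 5A it was 0.302. Ackr3, the receptor that removes CXCL12 without G protein signalling, was the more abundant in every library, at 0.971 against 0.115 CPM per kilobase as means over 5 libraries. Ackr3 was at 2.12 and 4.44 CPM in the saline-labelled pair and at 4.55, 2.24 and 2.91 CPM in DTx-labelled 5A, 6A and 7A, a fold change of 0.986 with a 95% interval of 0.459 to 2.12 (edgeR adjusted p = 0.993).

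Of 16 genes of CXCR4 signalling and CXCL12 turnover found in the table, 15 were tested and 0 passed in either direction, with 10 of 15 above 0 and a median log2 fold change of 0.135 against 0.00171 over all tested genes. Cd74, the invariant chain, which also serves as a receptor for MIF, had the smallest p. It was at 3.0 and 5.78 CPM in the saline-labelled pair and at 115.6, 4.6 and 49.6 CPM in DTx-labelled 5A, 6A and 7A, high in 2 DTx libraries and within the saline range in 6A (edgeR adjusted p = 0.789). Adrbk1 and Adrbk2, kinases that desensitise G protein-coupled receptors, had log2 fold changes of 0.43 and 0.3 (edgeR adjusted p = 0.797 and 0.805). Gnai1, an inhibitory G protein subunit, had one of -0.5 (adjusted p = 0.817).

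Cxcl16, the membrane-anchored ligand of CXCR6 (chromosome 11, 70453983 to 70459984, minus strand), was low but counted in all libraries. It was at 1.52 and 0.941 CPM in saline replicates 1 and 2, and at 4.76, 1.80 and 2.56 CPM in DTx-labelled 5A, 6A and 7A. Library 5A was the highest, and 6A was closest to saline replicate 1. The DTx values lay above those of the 2 saline libraries used, a separation that depends on the control columns chosen. The log2 fold change was 1.30 ± 0.527 (SE), or 2.47-fold with a 95% interval of 1.03 to 5.91, and it did not pass over all genes (edgeR adjusted p = 0.789, 0.0447 unadjusted). Without library 5A it was 0.82. Zmynd15, on the opposite strand, overlaps Cxcl16 in the annotation. It had 3 to 7 counts per library, and without a stated strand setting reads of the overlap cannot be told apart.

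Microglia also express Cxcl16, and 13 of 14 microglia markers had a fold change above 1, against 50.3% of all tested genes. Of these markers 0 passed, and 1 had an unadjusted edgeR p under 0.05. Their summed level was 138 and 304 CPM in saline replicates 1 and 2 and 489.9 CPM in library 5A, 359.8 CPM in 6A and 298 CPM in 7A, with no marker at 0. Library 5A was the highest for both Cxcl16 and this sum, and saline replicate 2, the lowest for Cxcl16, had a marker sum above that of 7A. The part of microglia in the Cxcl16 level was not tested. The genes of most similar pattern were Tagap and Casp1, at 0.124 and 0.126 log2 units from Cxcl16, which itself spanned 2.22.

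Cxcr6, the receptor of CXCL16, was at 1.80 and 0.672 CPM in the saline-labelled pair and at 0.846, 0.746 and 0.456 CPM in DTx-labelled 5A, 6A and 7A, with overlap between groups (log2 fold change -0.85 ± 0.572 (SE), edgeR adjusted p = 0.814). The shedding protease gene Adam10 was at 147 and 139.7 CPM in the saline-labelled pair and at 102, 101 and 114 CPM in DTx, lower in every DTx library. Its log2 fold change of -0.44 ± 0.136 (SE) did not pass over all genes (edgeR adjusted p = 0.789, 0.016 unadjusted). Adam17 was at 39.1 and 48.4 CPM in the saline-labelled pair and at 35.2 to 41.1 CPM in DTx. Neither of the 2 shedding genes passed, and both had fold changes below 1.

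Cxcl9 and Cxcl10 neighbour each other on chromosome 5 (92321347 to 92328079 and 92346638 to 92348889, minus strand), and both answer to interferons. Because both had the same order among the DTx-labelled libraries, the 250 bases before each start are shown from RefSeq (GRCm38.p6, minus strand, chr5:92328080-92328329 and chr5:92348890-92349139). Capitals mark matches on either strand to GAAANNGAA, the core of an interferon-stimulated response element, GGANTTTCC, a kappa B site, and the TATA box motif TATAAA.
Cxcl9 promoter: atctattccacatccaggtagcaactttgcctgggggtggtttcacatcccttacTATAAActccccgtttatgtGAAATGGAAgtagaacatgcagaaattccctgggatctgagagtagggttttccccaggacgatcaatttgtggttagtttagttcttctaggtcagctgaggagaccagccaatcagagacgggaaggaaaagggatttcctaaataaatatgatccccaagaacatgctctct
Cxcl10 promoter: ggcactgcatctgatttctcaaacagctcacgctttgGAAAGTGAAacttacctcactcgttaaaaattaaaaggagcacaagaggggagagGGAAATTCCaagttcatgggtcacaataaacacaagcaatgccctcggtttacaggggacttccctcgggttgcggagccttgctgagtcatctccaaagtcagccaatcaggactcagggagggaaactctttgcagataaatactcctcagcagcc
The Cxcl9 window held 1 interferon-element match (175 to 167 bases before the start) and 1 TATAAA match (195 to 190 bases before). The Cxcl10 window held 1 interferon-element match (213 to 205 bases before the start) and 1 kappa B match on the reverse strand (158 to 150 bases before). Over 32851 promoter windows of the same length, 7.13% held GAAANNGAA, 1.07% GGANTTTCC and 12.4% TATAAA. Of the 6 genes with a promoter entry, Cxcl14, whose level was steady, held GAAANNGAA too. It also held TTCNNNGAA, a gamma-activated site pattern found in 7.02% of windows and in no other of the 6. A match describes these letters only.

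Cxcl10 varied widely among the DTx libraries. It had 0 counts in saline replicates 1 and 2, which allows up to 0.139 and 0.134 CPM, and was at 4.60, 11.6 and 0.513 CPM in DTx-labelled 5A, 6A and 7A, from 87, 187 and 9 counts. Library 6A was the highest, and 7A lay far below the other DTx libraries. The edgeR quasi-likelihood p was 0.0147 and its adjusted p 0.789. The adjusted p was 0.0133 with DESeq2 and 0.0036 with the edgeR likelihood ratio test, and 0.0036 to 0.856 over all alternatives. Cxcl10 passed the low-count filter through its DTx counts, which alone makes a difference likely, so nothing is read from these p-values. Without library 5A or 6A the gene fell below the filter. The absence of Cxcl10 reads depends on the control columns chosen, so no fold is given, and how the choice affects the tests was not computed. Art3, on the opposite strand, overlaps Cxcl10 in the annotation, and was at 5.08 and 9.997 CPM in the saline-labelled pair and at 4.85 to 8.20 CPM in DTx, so its own reads did not follow those of Cxcl10.

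Cxcl9 showed the same order of libraries at a lower level. It had 0 counts in both saline libraries and 10, 29 and 1 counts in DTx-labelled 5A, 6A and 7A, or 0.529, 1.80 and 0.057 CPM. Library 6A was again the highest, and the separation of 7A from saline rests on 1 count. The difference did not pass over all genes (edgeR adjusted p = 0.789, 0.0273 unadjusted). Cxcl9 too passed the low-count filter through its DTx counts, so nothing is read from these p-values. Cxcl11, the remaining CXCR3 ligand, is annotated as a polymorphic pseudogene in the reference strain and had 0 counts in saline and 4, 2 and 0 in DTx. Cxcr3, the receptor of these ligands, had 3 counts in saline and 4 in DTx. T and NK cell markers were nearly absent, at 0.187 to 1.0 CPM summed over 8 genes, with Cd3d and Cd8a at 0 in all 5 libraries.

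The interferon receptors and factors that induce Cxcl9 and Cxcl10 were examined as a list of 11 genes, all tested. None passed in either direction, 8 of 11 had a log2 fold change above 0, and the median was 0.36 against 0.00171 over all genes. Irf9, a transcription factor of type I interferon signalling, was at 8.13 and 9.1 CPM in the saline-labelled pair and at 30.5, 43.9 and 18.6 CPM in DTx-labelled 5A, 6A and 7A. It had the order of Cxcl10 among the DTx libraries, highest in 6A and lowest in 7A, and its values did not overlap with the 2 saline libraries (edgeR adjusted p = 0.759). Ifnar2, a receptor subunit, had a log2 fold change of 0.53 without overlap (edgeR adjusted p = 0.789). Its partner subunit Ifnar1, chosen after its values were seen, went the other way, at 62.2 and 64.6 CPM in the saline-labelled pair and at 56.3, 59.5 and 56.2 CPM in DTx (log2 fold change -0.14, edgeR adjusted p = 0.831). Irf1, with 0.95, overlapped between groups (adjusted p = 0.789).

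The genes of most similar pattern to Cxcl9 were Gbp6 and Gbp2, at 0.348 and 0.359 log2 units, and those to Cxcl10 were Ifit1 and Iigp1, at 0.722 and 0.73 log2 units. Cxcl9 spanned 4.2 and Cxcl10 6.82 log2 units. Ifit1 was at 2.59 and 2.24 CPM in the saline-labelled pair and at 47.0, 82.4 and 10.3 CPM in DTx-labelled 5A, 6A and 7A. Gbp6, Gbp2, Ifit1 and Iigp1 were each highest in 6A and had 7A as the lowest of the DTx libraries. They were chosen for a similar pattern over these same libraries, so the shared order follows from the choice.

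**Figure D3:**
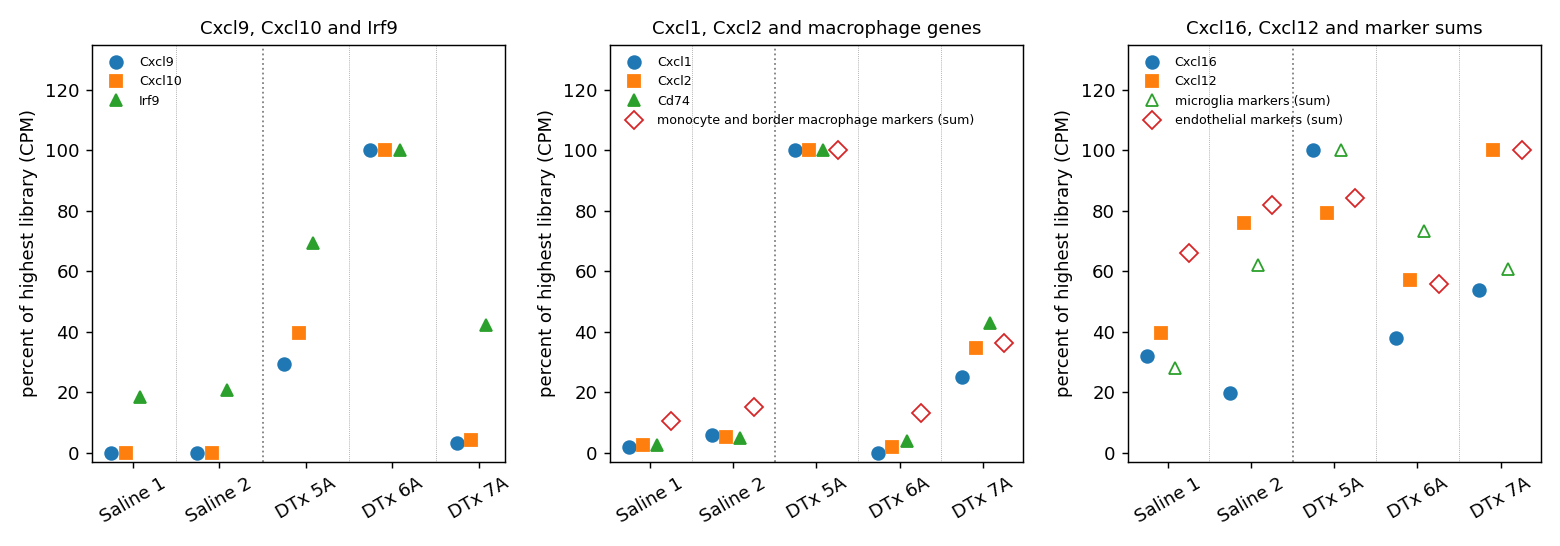
Levels in each library as a percent of the highest library of the same gene or marker sum, for Cxcl9 and Cxcl10 with Irf9 (left), Cxcl1 and Cxcl2 with Cd74 and the summed monocyte and border macrophage markers (middle), and Cxcl16 and Cxcl12 with the summed microglia and endothelial markers (right); open symbols are sums. Cxcl10 peaks in library 6A at 11.6 CPM, and Cxcl1 peaks in 5A at 2.27 CPM and has no count in 6A.

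Cxcl1, a neutrophil-attracting ligand of CXCR2 (chromosome 5, 90891241 to 90893115, plus strand), separated the DTx libraries in another way. Its 250 bases before the RefSeq start are shown for the kappa B site, the element through which NF-kB acts (GRCm38.p6, plus strand, chr5:90890995-90891244). Capitals mark the 1 match to GGANTTTCC, at 70 to 62 bases before the start.
Cxcl1 promoter: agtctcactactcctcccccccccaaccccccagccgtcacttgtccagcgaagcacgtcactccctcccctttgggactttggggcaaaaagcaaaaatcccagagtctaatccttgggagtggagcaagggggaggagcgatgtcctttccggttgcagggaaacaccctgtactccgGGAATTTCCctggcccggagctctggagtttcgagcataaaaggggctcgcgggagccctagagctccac
No match to the interferon-element core was in this window. Of the 6 windows examined, those of Cxcl1 and Cxcl10 held GGANTTTCC.

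Cxcl1 had 1 and 3 counts in saline replicates 1 and 2 and 43, 0 and 10 counts in DTx-labelled 5A, 6A and 7A, or 0.0462 and 0.134 CPM against 2.27, 0 and 0.57 CPM. Library 5A held most of the counts, and 6A, which was highest for Cxcl9 and Cxcl10, held none, so the groups overlapped. The log2 fold change was 3.31 ± 1.67 (SE; edgeR adjusted p = 0.797). Without library 5A the gene fell below the filter. Cxcl2, its close relative with the same receptor, was at 0.231 and 0.493 CPM in the saline-labelled pair and at 9.2, 0.187 and 3.19 CPM in DTx-labelled 5A, 6A and 7A. The pattern was that of Cxcl1, with 6A below both saline libraries (log2 fold change 3.51 ± 1.51 (SE), edgeR adjusted p = 0.797). Library 5A held 174 of the 233 DTx counts of Cxcl2. Against 4 Cxcl1 and 16 Cxcl2 counts in 2 saline libraries, the size of either difference depends on the control columns chosen. This holds for the log2 fold changes above too, and no count ratio is given. Cxcl1 also passed the low-count filter through its DTx counts.

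The summed level of monocyte and border macrophage markers had its highest values in the same libraries, although 0 of the 5 markers tested passed. Over 10 genes the sum was at 16.7 and 24.6 CPM in the saline-labelled pair and at 161, 21.02 and 58.3 CPM in DTx-labelled 5A, 6A and 7A, highest in 5A and 7A and within the saline range in 6A. Most of the sum in 5A came from Lyz2, a lysozyme of myeloid cells, at 91.3 CPM, and Mrc1, the mannose receptor of border macrophages, at 37.95 CPM. The monocyte genes Ly6c2, Plac8 and Chil3 had 0 to 5 counts per library, and Ccr2 was at 0 in saline and Ly6c2 at 0 in DTx. Their part in the Cxcl1 and Cxcl2 levels was not tested. Neutrophil markers were at 0.785 to 2.8 CPM summed over 9 genes, and Ly6g, Mmp8, Retnlg and Elane had no count in any of the 5 libraries. The neutrophil receptors Cxcr1 and Cxcr2 had 0 and 1 counts in all. The genes of most similar pattern to Cxcl1 were Osr1 and Ccr1, at 0.118 and 0.287 log2 units, with Cxcl1 spanning 4.52.

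Of 14 receptors and NF-kB regulators upstream of Cxcl1, 0 passed in either direction, 9 of 14 had a log2 fold change above 0, and the median was 0.224. Il17rc, a subunit of the IL-17 receptor, was at 7.43 and 8.79 CPM in the saline-labelled pair and at 12.02 to 14.4 CPM in DTx (log2 fold change 0.7 ± 0.193 (SE), edgeR adjusted p = 0.778). Nfkbia, the NF-kB inhibitor that NF-kB itself induces, was at 28.1 and 47.9 CPM in the saline-labelled pair and at 71.6, 60.3 and 97.4 CPM in DTx-labelled 5A, 6A and 7A (edgeR adjusted p = 0.789). Tnfaip3 and Nfkbiz are further NF-kB response genes (edgeR adjusted p = 0.797 for each). Tnfaip3 was at 1.75 and 2.24 CPM in the saline-labelled pair and at 8.46, 1.74 and 6.72 CPM in DTx-labelled 5A, 6A and 7A. Nfkbiz was at 4.62 and 3.90 CPM in the saline-labelled pair and at 15.96, 3.73 and 9.23 CPM in DTx-labelled 5A, 6A and 7A. In 6A both lay close to the lower of the saline libraries.

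The other CXC ligands were mostly at the limit of detection. Of 9 genes 3 were tested, Cxcl2, Cxcl5 and Pf4, and 0 passed in either direction. Cxcl5, another CXCR2 ligand, went the opposite way from Cxcl1 and Cxcl2, at 1.39 and 0.897 CPM in the saline-labelled pair and at 0.476, 0.373 and 0.342 CPM in DTx-labelled 5A, 6A and 7A. The groups did not overlap, with a log2 fold change of -1.5 ± 0.477 (SE; edgeR adjusted p = 0.789, 0.0173 unadjusted). Pf4, a platelet and macrophage chemokine, was at 1.15 and 2.24 CPM in the saline-labelled pair and at 9.62, 2.05 and 2.45 CPM in DTx. Library 5A alone stood apart (adjusted p = 0.797), and the count ratio of 2.88 was 1.32 (0.95 to 1.85) without it. Ppbp had 2 counts in saline and 24 in DTx (ratio 10.04, 95% exact interval 2.49 to 87.6). Cxcl13, a B cell attractant, had 1 and 15 (12.5, 1.93 to 528). The count-ratio intervals of Pf4, Ppbp and Cxcl13 hold counting error only, not the spread between libraries. Library 5A held 18 of the Ppbp and 13 of the Cxcl13 counts. Cxcl17 had 9 counts in each group, Cxcl3 had 1 count in all, and Cxcl15 none.

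Of the 7 other receptors, Cxcr6, Ackr3 and Ackr1 were tested and 0 passed in either direction. Ackr1, a chemokine-binding receptor of venules and red cells that does not signal, was at 0.923 and 0.538 CPM in the saline-labelled pair and at 1.22, 1.43 and 0.627 CPM in DTx-labelled 5A, 6A and 7A, with overlap between groups (edgeR adjusted p = 0.844). Cxcr5, the receptor of CXCL13, had 1 count in all. The receptors of the inducible ligands, Cxcr1, Cxcr2 and Cxcr3, had at most 4 counts in any 1 library.

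**Figure D4:**
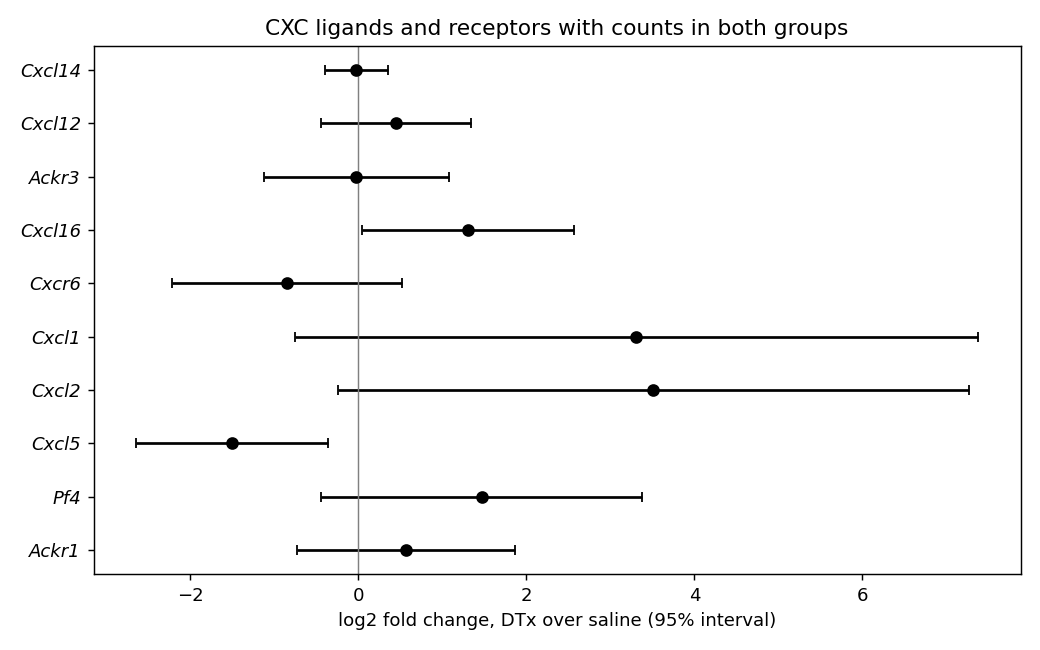
Log2 fold change of DTx over saline for 10 of the 12 CXC ligands and receptors tested, with points for the edgeR estimate and bars for its 95% interval; Cxcl9 and Cxcl10, with no count in the 2 saline libraries used, are left out. The interval of Cxcl14 is the narrowest, at -0.4 to 0.36, those of Cxcl16 and Cxcl5 exclude 0 before adjustment, and those of Cxcl1 and Cxcl2 span more than 7 log2 units.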

How the data were processed

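RNA sequencing counts of 2 saline and 3 DTx libraries were analysed. The authors deposited raw counts per gene, and the submitters' processing notes name featureCounts 2.0.1, STAR 2.7.5c, fastp 0.23.2 and edgeR 3.42.4, and the builds GRCm38 and mm10. The annotation and the strand setting were not given in the sources used here. Control columns 1 and 2 were taken as saline replicates 1 and 2 by number, DTx columns were placed by group, and 1 further column of per-sample values, named as a control but matching no label, was not used. The absence of Cxcl10 in saline, the separations of Cxcl10 and Cxcl16, and the size of the Cxcl1 and Cxcl2 differences depend on leaving that column out. The design text counts mice per group but no label ties a library to 1 animal, and the p-values reflect only the library-to-library spread, which may be technical. No pair agreed within sampling noise (chi-square per degree of freedom at least 14.25).

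The counts were compared with edgeR 4.0.16 in R 4.3.3 (TMM, filterByExpr with minimum count 10, robust quasi-likelihood F test, Benjamini-Hochberg adjustment over all genes, threshold 0.05), tested on simulated data. SE is the log2 fold change over the square root of F, and 95% intervals use its degrees of freedom. Intervals of count ratios are exact binomial, from counts without molecular identifiers. DESeq2 1.42.0, limma 3.58.1 and other settings were alternatives. Gene positions and exon lengths are from GENCODE M21, and promoters from RefSeq, which held 6 of the 7 genes. Similar genes were those with a mean of at least 1 CPM and the smallest difference in log2 CPM (prior count 2). All 7 genes, the tested CXC genes and up to 4 genes per list with the smallest p were named, with Ccr2, Xist and Ddx3y as label checks, and Art3 and Zmynd15 as overlapping genes. CXC genes below the filter, similar genes and the genes that passed over all genes were named in addition. Some genes that this rule names are not reported here. The genes and lists were chosen with earlier results of these data known.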

Additional observations from a re-analysis of the deposited data

How the results depend on the processing

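With RLE, upper-quartile or total-count scaling, limma-voom, other low-count filters or any 1 library left out, 0 of the 7 genes passed. DESeq2 and the edgeR likelihood ratio test each called 1, Cxcl10. That gene passed the low-count filter through its DTx counts, so nothing is read from these calls. The count over all genes was 5, namely Xist and 4 Y-linked genes. It was 9 with no low-count filter, 111 with DESeq2 and 93 with the likelihood ratio test. With a library left out it was 5 to 13 (13 without DTx library 7A). The genes without overlap and DTx higher, 3 of those tested, were 1 to 4 with a library left out. That was Cxcl16 alone without library 5A, where Cxcl1, Cxcl9 and Cxcl10 fell below the filter, and Cxcl12 joined without saline replicate 2. Without library 6A, Cxcl16, Cxcl1 and Cxcl12 were the 3, and Cxcl9 and Cxcl10 fell below the filter. The share of all genes was not computed for these smaller splits, where separation is easier, so nothing is read from these counts. The log2 fold change of Cxcl14 was -0.084 to 0.041 with a library left out and above 0 without saline replicate 2 or DTx library 7A; it lay near 0 in each. In 66 refits of single genes direction and side of the threshold were counted as the reported ones, in 2 Cxcl10 passed and in 2 Cxcl14 changed sign. The 66 include Cxcl9 with DESeq2, which gave it no adjusted p. No paired analysis was possible because the DTx columns carry numbers that occur in no label. Counts of 0 to 43 per library limit Cxcl1, Cxcl9 and Cxcr4.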

Other observations

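For Cxcl10 with Cxcl9, and for Cxcl2 with Cxcl1, count ratios were taken within each library. Cxcl10 gave 8.7, 6.45 and 9.0 counts for each Cxcl9 count in DTx-labelled 5A, 6A and 7A, although its level differed between 0.513 and 11.6 CPM there. For each Cxcl1 count there were 5.0 and 3.67 Cxcl2 counts in the saline-labelled pair, against 4.05 and 5.6 in DTx-labelled 5A and 7A, and in 6A there were 3 Cxcl2 counts and 0 Cxcl1 counts. Several of these ratios rest on 1 to 11 counts, so how steady they are between libraries cannot be told. Cxcl9 and Cxcl10 were highest in library 6A, and Cxcl1 and Cxcl2 in 5A. Library 6A had 0 Cxcl1 counts, against only 1 and 3 in saline replicates 1 and 2. Ackr3 gave 4.18 to 49.5 counts for each Cxcr4 count, lowest in saline replicate 1, which held 11 Cxcr4 counts.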
